A study of Bos taurus with 12 samples.

Results

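RAB proteins are small GTPases that mark the membranes of the secretory and endocytic routes. Of the 9155 genes that the probe sets of this array series name, 39 were RAB genes, read by 48 probe sets. They were taken by symbol, as RAB followed directly by a digit, and genes named after a RAB they bind, such as RAB3GAP1 or RAB11FIP2, were left out. Another 3 probe sets that the annotation assigns to a RAB gene together with an unrelated gene were not counted. RAB genes outside these 39 were not analysed here.

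The chondrocytes were from male dairy cattle not yet 10 months old, from the growth plate at the distal end of the metacarpus, a long bone of the lower leg. In this cartilage the bone lengthens. Its cells were freed with collagenase and parted by density. The lightest fraction was taken as hypertrophic zone (HZ), where cells enlarge and mineralise their matrix, and the heaviest as reserve zone (RZ), which holds resting precursors. Each zone had 6 arrays, in pairs numbered 1 to 6 with 1 array of each zone, described as independent. Whether both members of a pair are from 1 animal is not stated. Apart from a fit that ignored the pairs, p-values rest on how much the pairs varied. The limma tests also draw the variance of each probe set towards that of all probe sets. Zone markers followed the labels in part, with 5 of 9 hypertrophic markers higher in HZ and 4 of 6 reserve zone markers lower. The hypertrophic marker COL10A1 did not pass, with mean signals of 21619 in HZ and 20146 in RZ. The reserve zone markers NT5E and GDF5 did not pass either, and their log2 differences were above 0 (0.29 and 0.19). Of general chondrocyte markers, 0 of 8 passed the test described next, which also gave the other calls. The zones were bulk fractions, so fewer cells of a type and less RNA per cell cannot be told apart.

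A RAB protein cycles between a GTP-bound form, which sits on a membrane and recruits effectors such as tethers and motors, and a GDP-bound form that is drawn off the membrane. Exchange factors load GTP, GTPase-activating proteins (GAPs) end the active state, and lipid tails added by prenylation anchor the protein. Chondrocytes secrete very large amounts of collagen and proteoglycan, which leave the cell through the endoplasmic reticulum and the Golgi, the compartments on which the secretory RABs act.

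For most RAB genes the estimated RNA difference between HZ and RZ was small. RAB30 and RAB3D, both of the secretory route, were higher in HZ, RAB7B of the endocytic route was lower, and the other 45 of 48 probe sets did not pass. Of those 45, only 17 had a 95% interval within 0.5 on the log2 scale, so modest differences are not excluded for the rest. The test was limma with the pair as a block, on log2(signal + 16), with a Benjamini-Hochberg adjusted p under 0.05 over all 24016 probe sets. By the same test 6.22% of all probe sets passed (3.26% higher, 2.96% lower in HZ), so 3 of 48 RAB probe sets is a share near that of the whole array. Among the brighter 12008 probe sets, tested alone, the RAB share was below that of all, with 3 of 31 RAB probe sets (9.68%) passing against 19.7%, a gap that was not tested. By gene, 3 of 39 RAB genes passed, against 7.73% of all named genes. On the log2 scale of the deposited ratio itself 315 probe sets were higher and 163 lower in HZ, in place of 782 and 712. The median log2 difference was -0.00 over the RAB probe sets and -0.01 over all probe sets. The quartiles were -0.15 and 0.18 for the RAB probe sets and -0.24 and 0.21 for all. The same direction in all 6 pairs was found in 4 RAB probe sets, against 14% of all, and signals of the zones did not overlap in 2, against 2.89% of all.

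By role, 2 of 21 probe sets of secretory RABs passed as higher and 0 as lower, with a median log2 difference of 0.02. Among the 20 probe sets of endocytic RABs, 0 passed as higher and 1 as lower, with a median of -0.01. Of the 7 probe sets of RABs with other or less settled roles 0 passed by limma, 0 of them with an unadjusted p under 0.05, and their median was -0.02. At an unadjusted p under 0.05 there were 4 secretory and 1 endocytic probe sets, against 22.2% of all probe sets. Whether secretory and endocytic members differ was not tested.

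**Figure D1:**
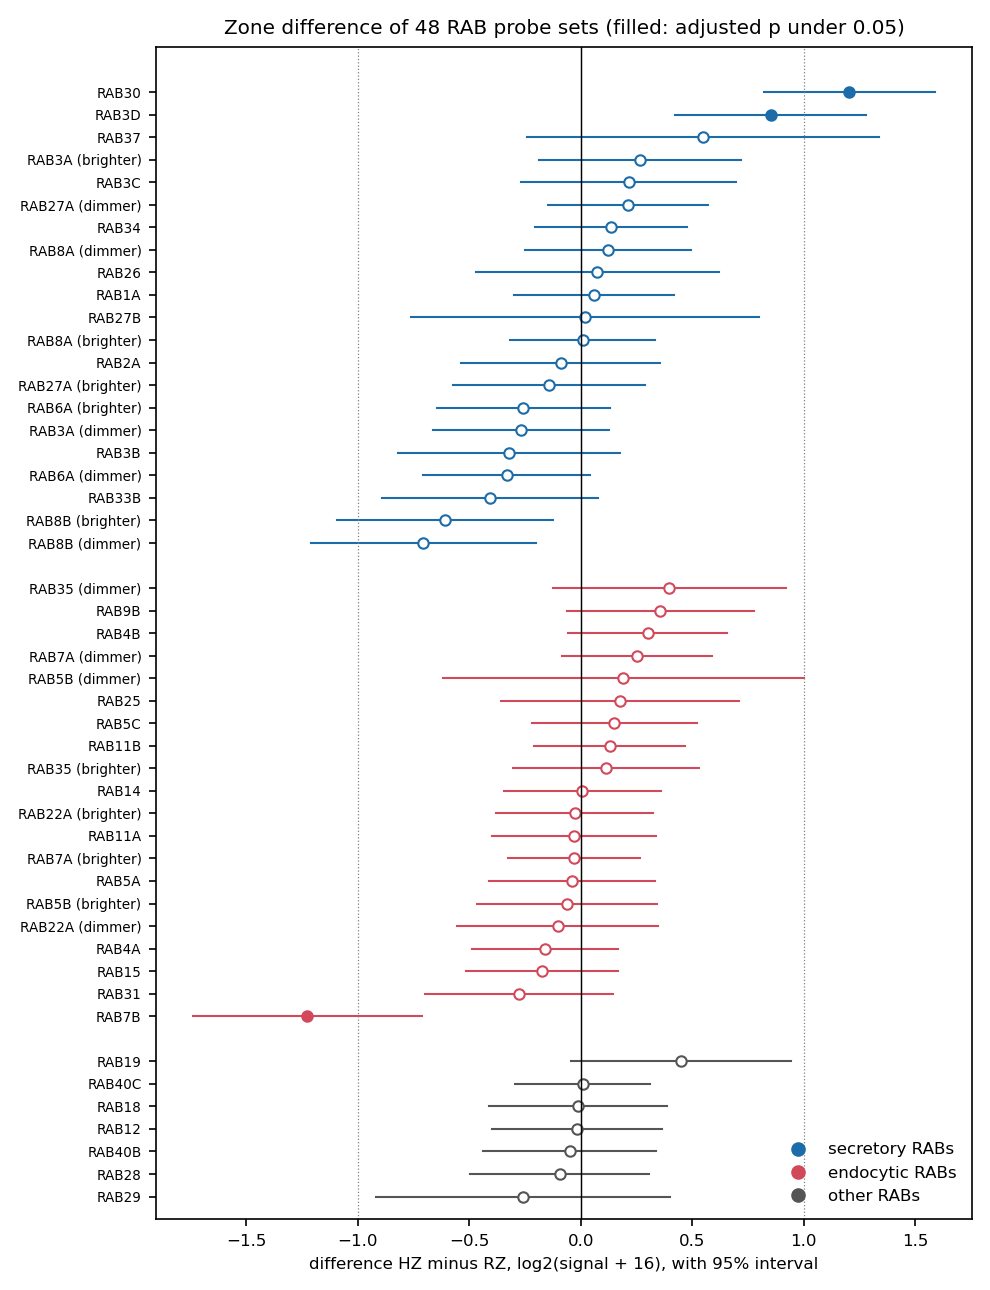
Difference HZ minus RZ in log2(signal + 16) for each of the 48 RAB probe sets (points) with its 95% interval from limma (lines), grouped as secretory, endocytic and other, with filled points for adjusted p under 0.05 and dotted lines at 2-fold. RAB30 and RAB3D lie to the right and RAB7B to the left of 0, and most other points lie close to 0.

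RAB30 is a RAB of the Golgi. Its probe set had signals from 237.7 to 613.1 on the HZ arrays, with a median of 425.1, and from 106.5 to 227.9 on the RZ arrays, with a median of 183.5. Every HZ array lay above every RZ array. Signal averaged 422.2 ± 134.2 in HZ and 171.0 ± 44.4 in RZ (SD, n = 6 arrays). The log2 difference was 1.21 ± 0.17 (SE, limma adjusted p = 0.00587), or 2.31-fold higher in HZ. RAB30 was higher in HZ in 6 of 6 pairs, by 0.68 in pair 2 at the least and 1.66 in pair 4 at the most. Pairs 1 and 2, whose deposited values have coarser steps than the others, averaged 0.73 and pairs 3 to 6 averaged 1.44. A test of that gap between the sets of pairs did not pass (-0.71 ± 0.31, SE, limma adjusted p = 0.987). RAB30 passed in each of the 6 fits with 1 pair fewer, but not with pairs 3 and 4 both left out (1.07, adjusted p = 0.0653).

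RAB3D belongs to the RAB3 group, which acts on secretory vesicles that wait for a signal before they fuse with the plasma membrane. Its signals ran from 64.2 to 123.1 in HZ, with a median of 94.7, and from 25.2 to 56.3 in RZ, with a median of 45.7. Here too every HZ array lay above every RZ array, although pair 6 had only 64.2 on HZ-6 and 54.1 on RZ-6. Signal averaged 93.2 ± 19.6 in HZ, against 44.6 ± 11.3 in RZ (SD, n = 6). RAB3D rose by 0.85 ± 0.19 on the log2 scale (SE, limma adjusted p = 0.0316). Pairs 1 and 2 averaged 1.13 and pairs 3 to 6 averaged 0.72. This call was a narrow one, since it passed in only 1 of 6 fits that left a pair out. It was kept without pair 6 (adjusted p = 0.0353) and lost without pair 1, 2, 3, 4 or 5 (adjusted p = 0.0944, 0.0815, 0.0533, 0.0586 and 0.0962). With 1 added to the signal in place of 16 it did not pass either (adjusted p = 0.0735).

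RAB7B, a relative of RAB7A, works between late endosomes and the trans-Golgi network, and in human cells it is best known from monocytes and dendritic cells. Its signals ran from 20.8 to 135.7 in HZ, with a median of 77.3, and from 101.6 to 258.6 in RZ, with a median of 173.8. The zones overlapped, with 4 of 6 HZ arrays below the lowest RZ array, but RAB7B was lower in HZ in all 6 pairs. Signal averaged 78.9 ± 50.2 in HZ, against 185.0 ± 61.6 in RZ (SD, n = 6). RAB7B fell by 1.23 ± 0.23 on the log2 scale (SE, limma adjusted p = 0.0158), or 2.34-fold. Pairs 1 and 2 averaged -1.32 and pairs 3 to 6 averaged -1.18. It passed in each of the 6 fits that left a pair out, but not when the pairs were ignored (adjusted p = 0.0796) or when 1 was added to the signal in place of 16 (adjusted p = 0.0617).

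**Figure D2:**
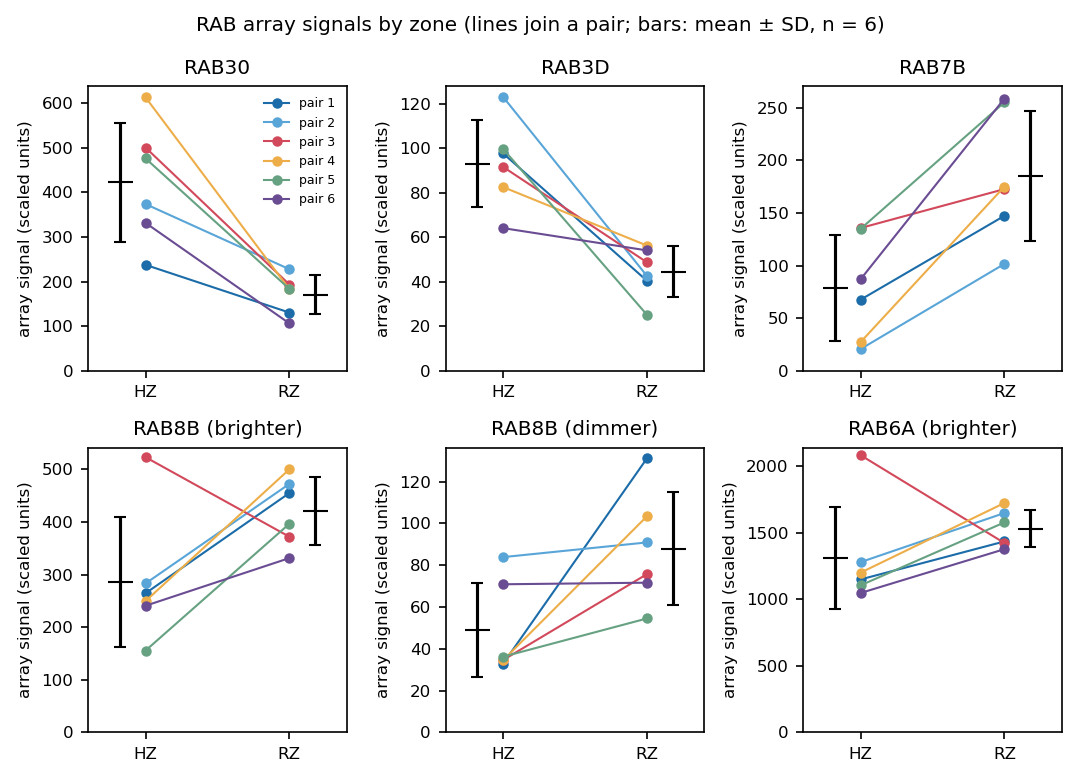
Array signal of 6 RAB probe sets, with HZ on the left and RZ on the right of each panel, lines joining the arrays of a pair and black bars for the mean ± SD of 6 arrays. RAB30 and RAB3D have no overlap between the zones, RAB7B is lower in HZ in every pair, and in the panels of the brighter RAB8B and RAB6A probe sets HZ-3 is the only HZ array above its RZ partner.

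Some markers of cells other than chondrocytes differed between the fractions as well. Of all named genes 7.73% passed, so 1 passing gene in a list of 7 or 9 is not set apart from the whole array. Of 12 macrophage and osteoclast markers 7 were higher and 0 lower in HZ. The summed signal of the 12 was 8596 to 11356 in HZ and 3404 to 7940 in RZ. Most of the HZ sum was CTSK, with a mean of 6683 in HZ and 2522 in RZ. CD14 pointed the other way, at -0.81 at its brighter probe set, which did not pass, and -1.02 at the other. Of 11 lymphocyte markers 0 were higher and 3 lower, with summed signals of 447.2 to 781.0 in HZ and 663.1 to 1530 in RZ. Those 3 were PTPRC (-1.72), CD2 (-0.96) and NKG7 (-1.67), each at its brightest probe set. Their other probe sets did not show such falls, at -0.24 to 0.19, 0.13 to 0.21 and 0.78. Of 9 granulocyte markers 1 was lower, with 505.8 to 2477 in HZ and 695.2 to 10950 in RZ. The high RZ sums were those of RZ-1 (10950) and RZ-2 (7056), and the other RZ arrays had 1375 or less. Of 7 endothelial markers 1 was lower (PECAM1, -1.06), with sums of 257.0 to 612.3 in HZ and 542.3 to 793.8 in RZ. Of 9 fibroblast and osteoblast markers 1 was higher (DMP1, 1.34), with sums of 4282 to 7320 in HZ and 5109 to 22538 in RZ. Both sums were lower in HZ in 5 of 6 pairs, and 0 of 6 erythroid markers passed. The part of these cells in the differences of RAB30, RAB3D and RAB7B was not tested.

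RAB8B came next by p. It carries cargo from the Golgi to the plasma membrane, as does RAB8A, and it had 2 probe sets; both, like RAB6A and RAB33B below, were singled out after their values were seen. At the brighter one signals ran from 155.5 to 523.3 in HZ, with a median of 257.1, and from 331.4 to 500.2 in RZ, with a median of 425.9. On 5 of 6 HZ arrays it was below the lowest RZ array, and the exception was HZ-3. The log2 difference of -0.61 ± 0.22 (SE) did not pass (limma adjusted p = 0.134), but without pair 3 it was -0.82 and passed (adjusted p = 0.0294). The dimmer probe set had a median of 35.4 in HZ and 83.3 in RZ and gave -0.71 ± 0.23 (SE, adjusted p = 0.0983), lower in HZ in 6 of 6 pairs, by under 0.1 in pairs 2 and 6, and without pair 3 it did not pass either (-0.67, adjusted p = 0.162). For RAB8A both probe sets were near 0, at 0.01 and 0.12.

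RAB6A, which acts within the Golgi and on carriers that leave it, showed the same layout at its brighter probe set. Signals ran from 1047 to 2082 in HZ, with a median of 1175, and from 1377 to 1723 in RZ, with a median of 1506, and again all HZ arrays but HZ-3 were below the lowest RZ array. The log2 differences were -0.26 ± 0.17 (SE, limma adjusted p = 0.435) and -0.33 ± 0.17 at the dimmer probe set (adjusted p = 0.281). RAB33B, a Golgi RAB that also acts in autophagy, and whose loss in humans causes a skeletal dysplasia (Smith-McCort dysplasia), had a median signal of 327.2 in HZ and 464.7 in RZ. It was lower in HZ in 5 of 6 pairs, with pair 3 the exception, and its log2 difference of -0.41 ± 0.22 (SE, adjusted p = 0.310) did not pass, nor without pair 3 (-0.61, adjusted p = 0.0784).

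RAB1A and RAB2A, which act between the endoplasmic reticulum and the Golgi, had the highest mean signals of the family. RAB1A ran from 6152 to 12371 in HZ, with a median of 8077, and from 6334 to 10008 in RZ, with a median of 8001. RAB2A ran from 2360 to 5422 in HZ, with a median of 2611, and from 2489 to 3758 in RZ, with a median of 3161. The zones overlapped widely for both, and the highest HZ value was that of HZ-3. Their log2 differences were 0.06 ± 0.16 (95% interval -0.30 to 0.42) and -0.09 ± 0.20 (SE; 95% interval -0.54 to 0.36).

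The other members of the secretory route act on regulated vesicles or at the Golgi. RAB27A, which docks granules at the plasma membrane, had 2 bright probe sets that pointed apart, at -0.14 and 0.21. RAB34, which positions lysosomes and acts at the primary cilium, gave 0.14 ± 0.15 (SE). RAB37, known from mast cell granules, gave 0.55 ± 0.35 (SE, limma adjusted p = 0.409), higher in HZ in 4 of 6 pairs but from 1.93 in pair 3 to -1.05 in pair 4. RAB26 and RAB27B were dim and gave 0.07 and 0.02. RAB3A, RAB3B and RAB3C, known from the vesicles of neurons and endocrine cells, gave 0.27, -0.32 and 0.21, with median signals of 63.4, 3.8 and 7.0 in HZ and 47.6, 6.7 and 1.7 in RZ, and the second RAB3A probe set, also near the bottom of the range, gave -0.27.

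Early endosomes showed no passing difference. RAB5A, RAB5B and RAB5C, which let early endosomes fuse, gave -0.04, -0.06 and 0.15 at their brightest probe sets, with standard errors of 0.17, 0.18 and 0.17. RAB5A, for example, ran from 1821 to 4017 in HZ, with a median of 2549, and from 2168 to 3197 in RZ, with a median of 2512. RAB22A and RAB31, early endosome RABs close to RAB5 in sequence, gave -0.03 and -0.28. RAB4A and RAB4B, which act in quick return to the plasma membrane, gave -0.16 and 0.30, and RAB35, of the same route, gave 0.11 and 0.40 at its brighter and dimmer probe sets.

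Of the recycling and late endosome members only RAB7B, above, passed. RAB11A and RAB11B, RABs of the recycling endosome, gave -0.03 ± 0.16 and 0.13 ± 0.15 (SE), and their epithelial relative RAB25 gave 0.18. RAB14, which links the Golgi and endosomes, gave 0.01 ± 0.16 (SE), with a median signal of 2498 in HZ and 2452 in RZ. RAB7A, which takes cargo from late endosomes to lysosomes, had medians of 715.4 in HZ and 749.5 in RZ at its brighter probe set, and gave -0.03 ± 0.13 there and 0.25 ± 0.15 at the other. RAB15 gave -0.17 and the dim RAB9B, of the route from late endosomes to the Golgi, 0.36.

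The remaining members sit on other organelles or have less settled roles. RAB18, found on the endoplasmic reticulum and lipid droplets, gave -0.01, RAB12, which sends a receptor from recycling endosomes to lysosomes, -0.02, and RAB28, which acts at the cilium, -0.09. RAB29, a partner of the kinase LRRK2, gave -0.26, RAB40B and RAB40C, which join ubiquitin ligases, -0.05 and 0.01, and RAB19 0.45. The limma 95% interval lay within 2-fold in either direction for 41 of the 45 probe sets that did not pass, and within 0.5 on the log2 scale for 17. It reached 2-fold for both RAB8B probe sets, for RAB37 and for the dimmer RAB5B probe set, so a 2-fold difference lies within the interval there. The constant of 16 shrinks differences of dim probe sets, and 12 of 48 had a mean signal under 50.

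Close relatives were set against each other within pairs, in 15 comparisons between members that share a number. RAB7B minus RAB7A was -1.19 ± 0.27 (SE, 6 pairs), below 0 in 6 of 6 pairs, with an exact two-sided sign-flip p of 0.03125, which is the smallest that 6 pairs allow, and an adjusted p of 0.234 over the 15. RAB3D minus RAB3B was 1.17 ± 0.37 (SE), above 0 in 6 of 6 pairs (exact p = 0.03125, adjusted p = 0.234), and against RAB3A and RAB3C the difference was 0.59 and 0.64 (exact p = 0.0938 for each). RAB3B and RAB3C were dim, with mean signals of 7.9 and 7.8, where the added 16 shrinks differences. For RAB3B the array RZ-1 (37.9) also stood apart. RAB8B minus RAB8A was -0.62 ± 0.34 (SE, exact p = 0.125), below 0 in 5 of 6 pairs. Of the 15 comparisons 0 passed after adjustment, and 2 had an unadjusted exact p under 0.05.

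Of the 9 genes with 2 probe sets, 5 gave the same direction at both and 4 did not. RAB8A kept its sign from probe set to probe set in 6 of 6 pairs, RAB8B, RAB6A, RAB35 and RAB22A in 5, RAB27A in 4, RAB3A and RAB7A in 3 and RAB5B in 1. The dimmer RAB5B probe set had a mean signal of 27.9 and the brighter 793.4.

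The bright members moved one way in pair 3. All 9 RAB probe sets with a mean signal of 1000 or more, those of RAB1A, RAB2A, RAB5A, RAB14, RAB18, RAB11A, RAB6A, RAB31 and RAB12, were higher in HZ in pair 3, with a median log2 difference of 0.60. In pairs 2 and 4, 0 of the 9 were higher in HZ, with medians of -0.32 and -0.30. Bright probe sets as a whole moved the same way, with 78.9% of the 2629 above that level higher in HZ in pair 3 and a median of 0.41, and medians of -0.25 in pair 2 and -0.28 in pair 4. Over the 6 pairs 0 of these 9 RAB probe sets passed by limma, 0 of them with an unadjusted p under 0.05, against 11.9% of bright probe sets that passed. The log2 ratio of 3′ over 5′ probes of GAPDH, a sign of RNA quality, was 1.46 on HZ-3 and 0.19 on RZ-3, but also 1.21 on HZ-4 and 0.33 on RZ-4. This ratio was higher in HZ in 5 of 6 pairs, so it moved with the zone as well. The ratio of actin was also higher in HZ in 5 of 6 pairs, at 3.03 ± 0.69 in HZ and 2.34 ± 0.45 in RZ (SD, n = 6 arrays). The ratio of EF1A went the other way, at -2.50 ± 0.39 in HZ and -2.26 ± 0.30 in RZ. For EF1A it was higher in HZ in 1 of 6 pairs, pair 3 (-1.81 on HZ-3, -2.65 on RZ-3). The part of RNA quality in the RAB values was not tested. Without pair 3, 12 of 48 RAB probe sets had an unadjusted p under 0.05, against 5 with it, and so did 23.9% of all probe sets.

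**Figure D3:**
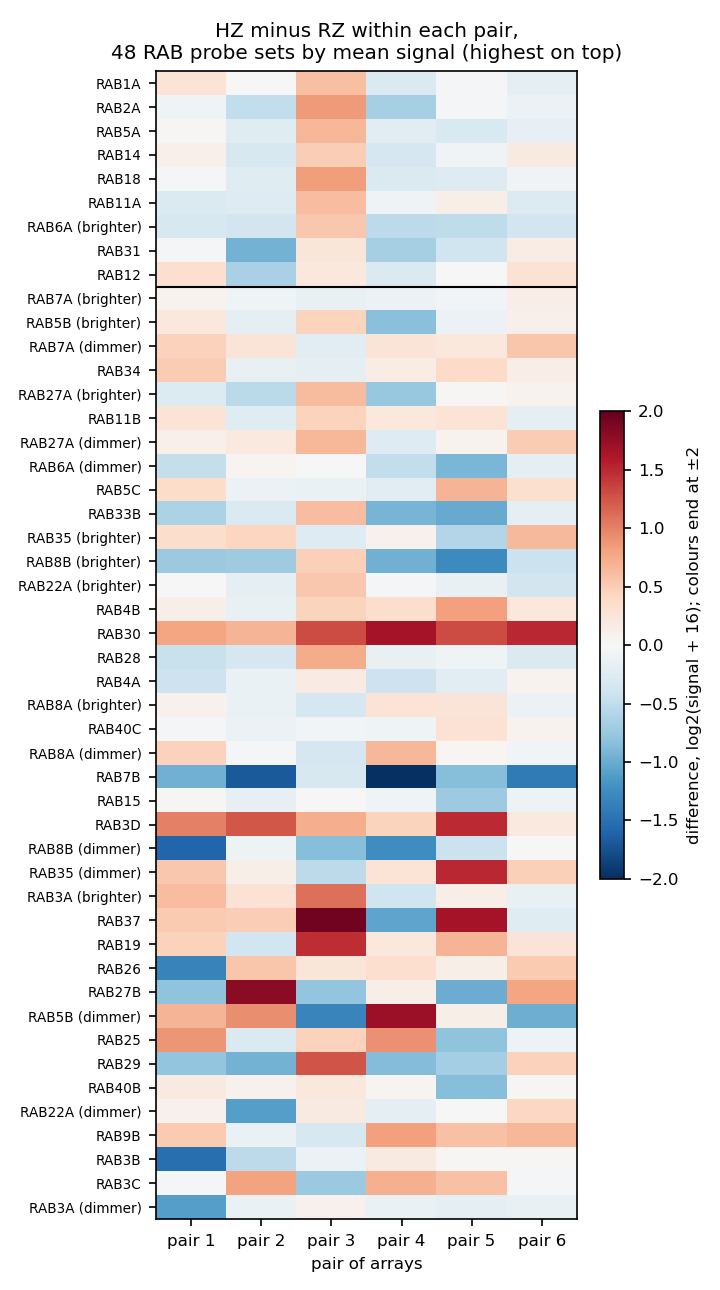
Difference HZ minus RZ in log2(signal + 16) within each of the 6 pairs (columns) for the 48 RAB probe sets (rows, by mean signal), red for higher and blue for lower in HZ. Above the black line, at mean signals of 1000 or more, all 9 probe sets are red in pair 3, and RAB30, RAB3D and RAB7B keep their colour across the pairs.

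The zone effect of pairs 1 and 2 was also set against that of pairs 3 to 6. By the limma interaction 0 of 48 RAB probe sets passed, and 2 had an unadjusted p under 0.05, those of RAB30 and RAB3B. Over all probe sets 0.00833% passed and 5.03% had such an unadjusted p. RAB3B gave -1.02 in pairs 1 and 2 and 0.03 in pairs 3 to 6. RZ-1 had a signal of 37.9 and the other 11 arrays had 11.3 or less.

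Genes that switch RAB proteins on and off gave a few passing rises and 0 passing falls. For named genes, each read by its brightest probe set, 4.17% passed as higher and 3.56% as lower on the whole array. Of 27 exchange factors 2 were higher, with a list median of 0.06. RIN1, which loads RAB5, averaged 152.4 ± 57.3 in HZ and 73.8 ± 33.7 in RZ (SD, n = 6 arrays). Its log2 difference was 0.93 ± 0.18 (SE, limma adjusted p = 0.0189). TRAPPC1, a subunit of the TRAPP complexes, which load RAB1, had 447.0 ± 59.3 in HZ and 277.0 ± 34.7 in RZ, a difference of 0.66 (adjusted p = 0.0388). With any 1 pair removed TRAPPC1 no longer passed (adjusted p = 0.0563 to 0.120), and RIN1 was lost without pair 1, 4 or 5 (adjusted p up to 0.0676). MON1A and MON1B, which load RAB7, gave -0.44 and -0.87 and did not pass (adjusted p = 0.162 and 0.130), and RAB3IP, which loads RAB8, gave -0.11.

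Of 23 RAB GAPs 2 were higher, with a list median of -0.04. RABGAP1L, a GAP-domain protein, had 160.3 ± 51.0 in HZ and 39.8 ± 21.4 in RZ (SD, n = 6 arrays). Its log2 difference was 1.71 ± 0.30 (SE, limma adjusted p = 0.0124), 1.05 in pairs 1 and 2 but 2.04 in pairs 3 to 6, and it passed whichever single pair was removed. It did not pass without pairs 3 and 4 (adjusted p = 0.0856), with 1 added to the signal in place of 16 (0.0588) or with the deposited ratio (0.0681). TBC1D24, another protein with the TBC domain of RAB GAPs, had 182.4 ± 15.8 in HZ and 117.5 ± 13.5 in RZ, a difference of 0.57 (adjusted p = 0.0343), kept in 1 of 6 such fits, that without pair 3 (adjusted p up to 0.101 in the others). RAB3GAP1 and RAB3GAP2, the subunits of a GAP for RAB3, gave -0.19 and -0.05.

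Effectors and the prenylation group gave 0 passing genes, each gene read by its brightest probe set. Of 37 effectors 0 passed by limma and 2 had an unadjusted p under 0.05, with a median of -0.04. SYTL2, a tether that binds RAB27, gave 0.52 (adjusted p = 0.0691) and OPTN, which binds RAB8, -0.56 (adjusted p = 0.0809). The other OPTN probe sets fell further, at -0.95 and -0.88, and whether they passed is not given here. Of 5 genes that prenylate proteins or handle prenylated ones, not all of them specific to RABs, 0 passed by limma and 1 had an unadjusted p under 0.05. The chaperone GDI2 gave -0.09 and RABGGTA, which adds the lipid tail, -0.14. For comparison, 1 of 12 ARF, ARL and SAR GTPases was higher (ARF3, 0.65), and 0 of 18 RAS GTPases passed, 5 of them with an unadjusted p under 0.05. No difference between these families and the RABs was tested.

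**Figure D4:**
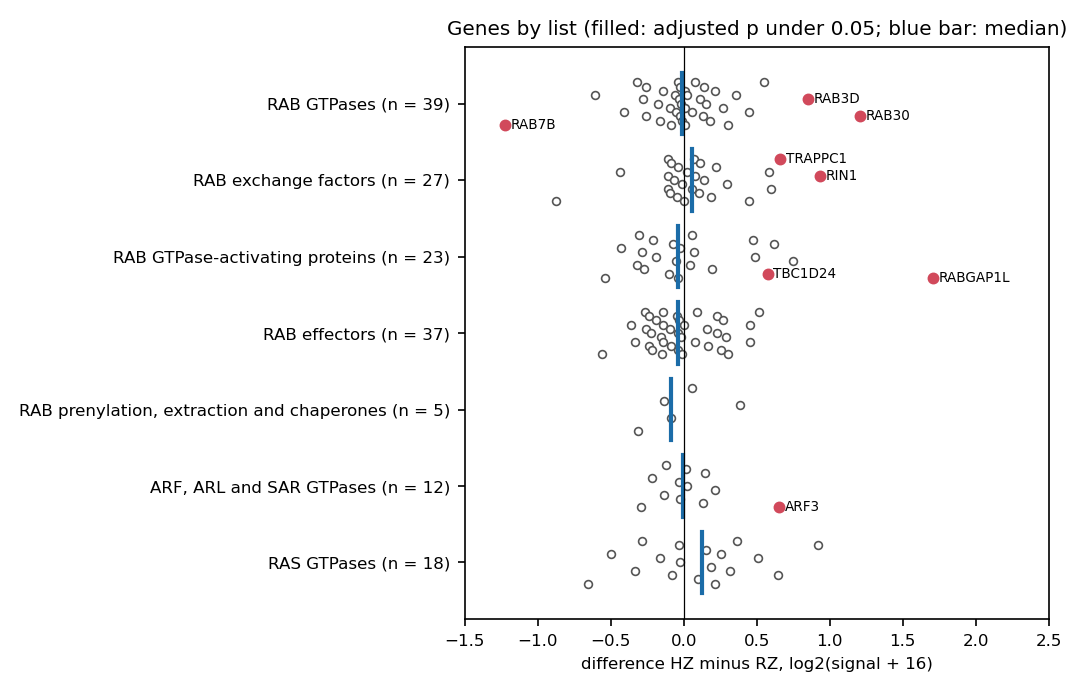
Difference HZ minus RZ in log2(signal + 16) of each measured gene (points, brightest probe set) in the RAB family, in 4 lists of RAB partners and in 2 other groups of small GTPases, with filled and named points for adjusted p under 0.05 and blue bars for list medians. The medians lie between -0.09 and 0.13, and 3 of 39 RAB genes are filled.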

How the data were processed

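RNA of 12 growth plate chondrocyte fractions was read on 1-colour arrays. Per the labels' protocols it was extracted with RNA STAT-60 and labelled with an Ambion MessageAmp II kit. The deposited values are linear ratios for 24128 probe sets. For the scanner software and the normalization, the sources used here give nothing. From the values, the ratio is the array's scaled signal over the probe set's median for 21901 probe sets and over 1 fixed value for 2227 dim ones. Signals were recovered from whole steps between ratios for all 24128 probe sets (largest distance 0.0616 of a step), with array medians of 96.7. Tested on 4000 simulated ones, the recovery solved 100%, of which 99.85% were correct. The unit assumes that a step is 0.1 signal units, which sets how large the added 16 is. The planned test expected array intensities and was run on these signals instead. No further normalization was made, and 112 control probe sets were left out.

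HZ was tested against RZ on log2(signal + 16), with the pair as a fixed block, over 24016 probe sets, in limma 3.58.1 (R 4.3.3). The series description speaks of sample pairs, and deviations of same-numbered arrays correlated at 0.124 (pair 3) to 0.447 (pair 2). By these deviations HZ-3 was closest to RZ-6, and every other HZ array was closest to its own RZ partner. On simulated data for this comparison, with 200 of 24016 probe sets changed, 41% of changes of log2 1 and 90% of changes of log2 2 were recovered. In the real data 1494 probe sets passed, which eases the adjusted threshold, so these shares need not hold there. Pairs 1 and 2 have coarser steps (0.0237 to 0.0318) than pairs 3 to 6 (0.00884 to 0.0110). Symbols come from the platform annotation, where 13292 probe sets have 1 symbol, 86 several and 10638 none, and 13263 matched RefSeq (table for ARS-UCD2.0) by Entrez identifier, with 0 symbols changed. Where a gene had several probe sets, the brightest on average stood for it. The RAB genes, role lists, partner lists and markers were chosen with earlier results of these data known. Every measured RAB gene is named. Those that passed and the 2 with the highest mean signal are given with signal ranges and medians by zone. Up to 4 passing genes of each other list are named, with some named beyond this for their roles. The result of 1 list is not reported here.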

Additional observations from a re-analysis of the deposited data

Results flagged for a closer look

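In each zone, the 6 log2(signal + 16) values of every RAB probe set were examined for an array that stood apart from the other 5 by Dixon's 95% criterion. This held in 10 of 96 groups of arrays. Chance flags about 1 in 20 groups, and groups that share arrays are not independent.

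HZ-3 was the high array for the brighter probe sets of RAB2A (5422, next 3054), RAB6A (2082, next 1279) and RAB22A (479.2, next 338.8). HZ-2 was the low array for RAB12 (634.4, next 1095), and HZ-1 the high one for RAB19 (82.1, next 55.2). RZ-1 was the high array for RAB3B (37.9, next 11.3) and the dimmer RAB3A probe set (25.7, next 7.8). RZ-6 stood apart for RAB22A (440.0, next 332.5) as high and for RAB28 (200.9, next 265.8) as low. HZ-6 was the high array for the dimmer RAB22A probe set (39.1, next 7.9).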

How the results depend on the processing

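The number of RAB probe sets that passed, 3 in the analysis reported, was 2 to 3 when a pair was left out and 3 with 64 added, quantile normalization, a random block for the pair, a trended robust variance or 1 probe set per gene. It was 1 (RAB30) with log2 of the deposited ratio, with 1 added and with pairs 3 to 6 alone, and 0 with pairs 1 and 2 alone and without pairs 3 and 4. Without the replicate block it was 2, with RAB7B lost. Among the brighter probe sets it was 3 of 31 (9.68%, against 19.7% of 12008), with RAB8B in and the dim RAB3D not tested. The 1494 passing probe sets of the whole array became 831 without the replicate block, 478 with the deposited ratio, 583 with 1 added, 2371 among the brighter probe sets, 336 in pairs 3 to 6, 0 in pairs 1 and 2, 139 without pairs 3 and 4, and 557 to 1540 with a pair left out. With pairs 1 and 2 alone limma gave 7 RAB probe sets and 2931 of all an unadjusted p under 0.05. Higher and lower probe sets, 782 and 712 in the analysis reported, were 315 and 163 with the deposited ratio, 368 and 215 with 1 added and 645 and 895 without pair 3. RAB30, RAB3D and RAB7B kept their direction in every alternative that held them. The difference of the zone effect between sets of pairs was recomputed with 1 or 64 added, quantile normalization, the brighter probe sets and each pair left out, and passed in 0 RAB probe sets in each. Without pairs 3 and 4, adjusted p was 0.0653 for RAB30, 0.0541 for RAB7B and 0.0985 for RAB3D. ARF3 held in 1 of the 6 fits that omit a pair, and with 1 added 0 RAB exchange factors and 0 GAPs passed. The causes were not tested, beyond the smaller number of arrays where pairs were left out.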
